A study of Mus musculus with 16 samples.

Results

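Messenger RNA levels of 10 genes that build, modify or burn fatty acids were read from bulk RNA-seq of CD8+ T cells in 4 sorted states, 3 activated in vitro and 1 naive. The genes were taken by symbol, not by their values: Fasn, Acaca, Acly, Scd1, Scd2, Elovl5 and Elovl6 on the side of synthesis, and Cpt1a, Acadm and Hadha on the side of oxidation. All 10 were found among the 34573 genes of the deposited count matrix, and all 10 were among the 14332 genes with enough counts to be tested. The study followed gene expression and chromosome folding through T cell activation, and its 4 Hi-C samples were not analysed here.

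All cells were CD8+ T cells of C57BL/6 mice, with no engineered allele named, isolated as naive cells from spleen with a selection kit. Tn cells were unstimulated naive cells at day 0, sorted as CD44- and CD62L+. The other 3 states came from cultures given anti-CD3e and anti-CD28 antibody, each at 10 µg/ml, which stand in for antigen and a co-stimulating partner cell, with mouse IL-2 (300 U/ml), a T cell growth factor, added overnight. Teff1 cells were taken at day 2 and sorted as PD-1+ and TIM-3-. Tex and Teff2 cells were both taken at day 5, Tex sorted as PD-1+ and TIM-3+ and Teff2 as PD-1+ and TIM-3-. PD-1 and TIM-3 are inhibitory receptors often used together to mark exhausted T cells, so Tex was defined by a surface stain after 5 days in a dish and not by a chronic infection or a tumour. Each state had 3 libraries, from 0.2 M cells each. The labels do not say whether these were separate animals or cultures, and the p-values below speak only of the spread among these libraries, which may be technical.

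Fatty acid synthesis starts in the cytosol from citrate, which ATP-citrate lyase (Acly) splits to give acetyl-CoA. Acetyl-CoA carboxylase 1 (Acaca) turns acetyl-CoA into malonyl-CoA, and fatty acid synthase (Fasn) joins these units into palmitate. Elongases (Elovl5, Elovl6) then lengthen the chain, and stearoyl-CoA desaturases (Scd1, Scd2) make it mono-unsaturated. In oxidation, carnitine palmitoyltransferase 1A (Cpt1a) loads long chains for entry into mitochondria, a step that malonyl-CoA inhibits. Medium-chain acyl-CoA dehydrogenase (Acadm) and the alpha subunit of the trifunctional protein (Hadha) act inside the mitochondrion. T cells that begin to divide are known to make fatty acids for new membranes, and resting and memory T cells are known to rely more on oxidation.

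Totals ran from 14.7 to 21.2 M counts a library, so that 3 counts, taken here as the floor of detection, stood at 0.143 to 0.204 CPM (counts per M counts of TMM-adjusted library size); this covers counting error only. The 7 CD8 T cell markers summed to 2715 to 3140 CPM in the activated libraries and 3572 to 5183 CPM in Tn, with none at 0. Havcr2, the gene of TIM-3, had 34.6, 10.9 and 38.4 CPM in Tex, against 0.612, 0.258 and 0.43 CPM in Teff2. Some libraries stood apart. Replicate 1 of Teff1, Tex and Teff2 was low for several lipid genes, as described for each gene. Tn replicates 1 and 3 held more RNA of B cells and antigen-presenting cells than Tn replicate 2: the 8 B cell markers, all with counts, summed to 1181, 581 and 1896 CPM in Tn replicates 1, 2 and 3, against 91.0 to 305 CPM in the 9 activated libraries, where Pax5 was at 0 in Tex and Teff2. The 5 genes of MHC class II antigen-presenting cells summed to 1390, 119 and 2107 CPM in the same Tn libraries, against 29.2 to 125 CPM in the activated ones. Results against Tn are therefore also given with Tn replicate 2 as the lone naive library where that ends the call of a gene described. In bulk samples, fewer cells of a type and less RNA per cell cannot be told apart.

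After activation, 3 synthesis genes were higher and 2 oxidation genes lower than in naive cells, and these 5 changes were called in all 3 activated states. Scd2 was 13.7-fold higher in Teff1, 13.6-fold in Tex and 13.3-fold in Teff2 than in Tn, Acaca 3.31- to 3.89-fold higher and Fasn 2.26- to 2.70-fold higher. Cpt1a was 2.01- to 2.35-fold lower and Acadm 1.58- to 1.62-fold lower. Acly, Scd1, Elovl5 and Elovl6 were not called, and Hadha was called only in Teff1, where it was 1.33-fold higher. Between the activated states, no member was called.

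Genes were called at a Benjamini-Hochberg adjusted p under 0.05 from edgeR's quasi-likelihood test over all 14332 genes. In Teff1 against Tn, 4 members were higher and 2 lower, beside 24.5% of all genes called higher and 24.5% called lower (48.9% in all). In Tex against Tn, 3 were higher and 2 lower, beside 27.3% and 25.6% of all genes (52.9% in all). In Teff2 against Tn, 3 were higher and 2 lower, beside 25.6% and 23.3% of all genes (48.9% in all). The members called were 60%, 50% and 50% of the 10, near these shares, so the counts by themselves set them apart from no other genes. Values given in threes against Tn below are those of Teff1, Tex and Teff2. The median log2 fold change of the 10 members was 0.45 in Teff1, 0.41 in Tex and 0.43 in Teff2 against Tn, where the median of all tested genes was -0.06, 0.00 and 0.00. The 3 comparisons share the Tn libraries and are not independent.

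**Figure D1:**
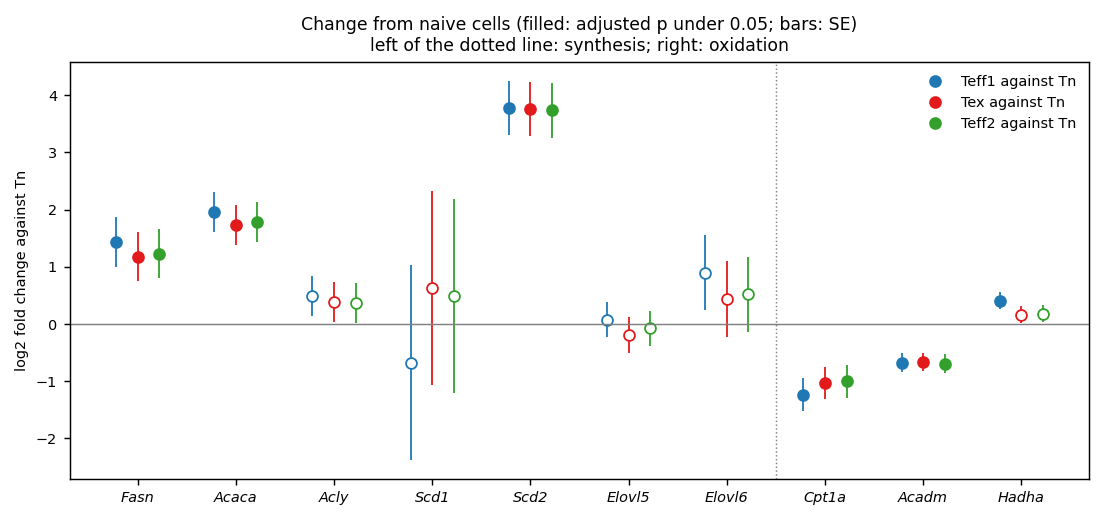
Log2 fold change of each member in Teff1, Tex and Teff2 against Tn (points, edgeR estimate; bars, standard error; 3 libraries a state; filled points, adjusted p under 0.05), with synthesis genes left of the dotted line and oxidation genes right of it. Scd2 stands at 3.74 to 3.78 in every state, Cpt1a and Acadm lie below 0 in every state, and the bars of Scd1 are the longest.

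To show what lies in front of the genes that changed in all 3 activated states, the 250 bases upstream of the start that RefSeq lists on GRCm38.p6 (the build that mm10 names) are printed for those with an entry, from 5′ to 3′ on the strand of the gene. Fasn (chr11:120824548-120824797, minus strand), Acaca (chr11:84195188-84195437, plus strand), Cpt1a (chr19:3323051-3323300, plus strand) and Acadm (chr3:153944644-153944893, minus strand) had one. Scd2, like Scd1, had none, and 8 of the 10 members matched. The listed starts of Fasn, Acaca and Cpt1a lie inside the annotated span of the gene, so these windows reach up to 619, 65803 and 975 bases into it, and only that of Acadm lies wholly outside. Capitals mark matches to any of 4 motifs searched on both strands: TCACNCCAC, a form of the sterol response element, CACGTG, an E-box, CCAAT, the CCAAT box, and GGGCGG, a GC box.
Fasn: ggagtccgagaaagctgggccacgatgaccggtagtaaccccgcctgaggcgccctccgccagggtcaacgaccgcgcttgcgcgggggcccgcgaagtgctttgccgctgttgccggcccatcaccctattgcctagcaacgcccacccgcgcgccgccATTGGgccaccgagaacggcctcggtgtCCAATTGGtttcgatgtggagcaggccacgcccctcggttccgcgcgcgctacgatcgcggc
Acaca: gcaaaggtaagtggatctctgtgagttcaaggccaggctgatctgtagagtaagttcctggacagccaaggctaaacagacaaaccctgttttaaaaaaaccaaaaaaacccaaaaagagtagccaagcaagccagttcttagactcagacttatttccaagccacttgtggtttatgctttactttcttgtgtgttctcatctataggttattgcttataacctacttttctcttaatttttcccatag
Cpt1a: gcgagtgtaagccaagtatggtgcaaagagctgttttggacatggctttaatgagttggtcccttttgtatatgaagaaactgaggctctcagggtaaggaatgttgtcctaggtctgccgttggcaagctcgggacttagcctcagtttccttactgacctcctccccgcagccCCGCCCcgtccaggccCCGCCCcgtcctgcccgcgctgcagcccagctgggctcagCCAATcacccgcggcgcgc
Acadm: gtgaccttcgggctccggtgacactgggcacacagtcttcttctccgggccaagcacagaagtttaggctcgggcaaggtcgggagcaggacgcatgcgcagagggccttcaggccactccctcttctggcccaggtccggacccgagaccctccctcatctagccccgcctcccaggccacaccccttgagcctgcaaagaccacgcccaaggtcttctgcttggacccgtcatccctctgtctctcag

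The Fasn window held 3 CCAAT matches, at -90, -62 and -59 from the start, of which the last 2 overlap, and 33 CpG pairs. The Cpt1a window held 2 GC boxes, at -75 and -59, 1 CCAAT match at -19 and 14 CpG pairs. No motif lay in the Acaca window, which holds 0 CpG pairs, or in the Acadm window, which holds 12. Of 32851 windows of 250 bases in the same table, 33.85% held CCAAT, 32.74% GGGCGG, 6.021% CACGTG and 1.053% TCACNCCAC. Each direction of change thus had 1 window with CCAAT and 1 without, and a match or its absence in this window says nothing of a factor's binding.

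Fasn, on chromosome 11 (120805958-120825166), had 291, 627 and 921 CPM in Teff1 replicates 1, 2 and 3, against 194, 273 and 213 CPM in Tn. Every Teff1 library was above every Tn library, and Teff1 replicate 1 lay closest to Tn. The difference was 1.43 on the log2 scale (SE 0.43, adjusted p = 0.0161, edgeR). Tex libraries had 465, 716 and 359 CPM, a log2 fold change of 1.18 against Tn (SE 0.43, adjusted p = 0.0353, edgeR). Teff2 libraries had 433, 831 and 329 CPM, a log2 fold change of 1.23 against Tn (SE 0.43, adjusted p = 0.0321, edgeR). All 9 activated libraries thus stood above the 3 naive ones, but the call was not firm. In Teff1 it ended without Teff1 replicate 3 (1.03, adjusted p = 0.0793, edgeR), without Tn replicate 1 (adjusted p = 0.0588) or without Tn replicate 3 (adjusted p = 0.0521). In Tex it ended without Tex replicate 2 (0.87, adjusted p = 0.138, edgeR) or without any single Tn replicate (adjusted p 0.0502 to 0.106). In Teff2 it ended without Teff2 replicate 2 (0.81, adjusted p = 0.143, edgeR) or without Tn replicate 1 or 3 (adjusted p 0.0999 and 0.0878). Both day 5 calls also ended in a limma test of the authors' log2 values. All 3 calls ended with Tn replicate 2 as the lone naive library, where the values were 1.15, 0.90 and 0.95 (adjusted p 0.259, 0.352 and 0.343, edgeR).

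Acaca, also on chromosome 11 (84129635-84401651), supplies the malonyl-CoA that Fasn consumes. It had 70.6, 159 and 199 CPM in Teff1, 95.7, 144 and 124 CPM in Tex, 88.6, 173 and 118 CPM in Teff2 and 30.5, 40.2 and 39.2 CPM in Tn. The lowest activated library, Teff1 replicate 1, was above the highest naive one. The log2 fold change against Tn was 1.96 in Teff1 (SE 0.35, adjusted p = 9.08e-04, edgeR), 1.73 in Tex (SE 0.35, adjusted p = 0.0016) and 1.79 in Teff2 (SE 0.35, adjusted p = 0.0015). These calls held with any single library left out and ended only with Tn replicate 2 as the lone naive library, where the values were 1.81, 1.58 and 1.64 (adjusted p 0.0530 to 0.0677, edgeR).

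Acly (chromosome 11, 100476352-100528000), the source of cytosolic acetyl-CoA, had 199, 377 and 491 CPM in Teff1, 219, 415 and 356 CPM in Tex, 205, 443 and 328 CPM in Teff2 and 226, 273 and 258 CPM in Tn. In each activated state replicates 2 and 3 were above all Tn libraries and replicate 1 below them. The log2 fold changes of 0.49, 0.39 and 0.37 were not called (adjusted p 0.254, 0.365 and 0.402, edgeR). Without replicate 1 of the 3 activated states they were 0.86, 0.70 and 0.69 and were called (adjusted p 0.00394, 0.00996 and 0.0113, edgeR). Replicate 1 was the lowest library of each activated state for Acly, so leaving it out raises these values by itself. All genes called against Tn also rose in this fit, from 7012 to 8326 in Teff1, 7584 to 9057 in Tex and 7010 to 8492 in Teff2. The same applies to each later use of this fit for a gene lowest in replicate 1.

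**Figure D2:**
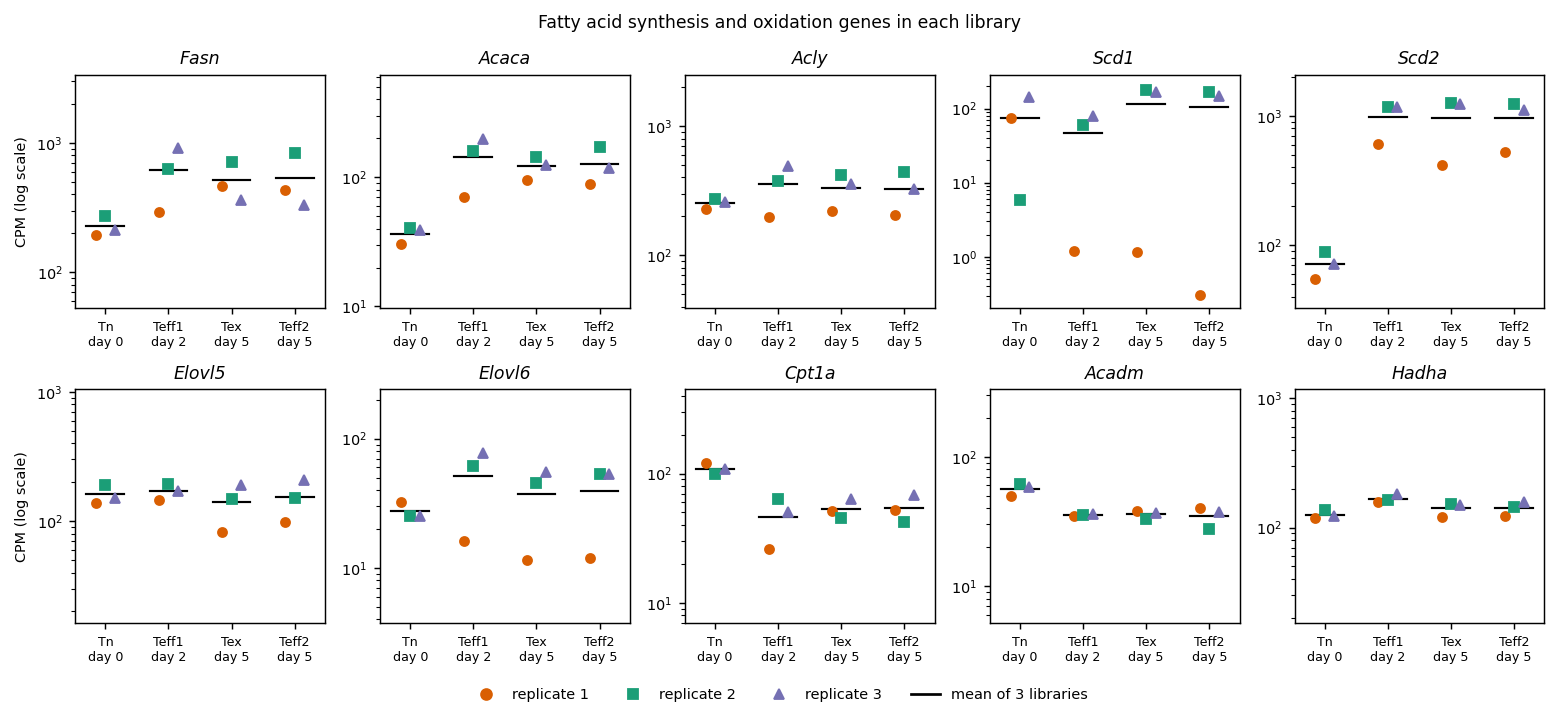
CPM of each member in every library (log axis, each panel with its own range; symbols, replicates 1, 2 and 3; black line, mean of the 3 libraries of a state), with states in order of culture time. Scd2 is above 400 CPM in all 9 activated libraries and below 90 CPM in all 3 Tn libraries, and the orange points of replicate 1 lie far below the others for Scd1 and Elovl6 in the activated states.

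Scd2 (chromosome 19, 44293676-44306864) had the largest change of the 10. This desaturase had 610, 1168 and 1162 CPM in Teff1, 416, 1253 and 1242 CPM in Tex and 525, 1236 and 1103 CPM in Teff2. The 3 Tn libraries had 54.4, 88.6 and 71.7 CPM. The groups were far from overlapping, although replicate 1 was the lowest library in each activated state. The log2 fold change against Tn was 3.78 in Teff1 (SE 0.48, adjusted p = 1.04e-04, edgeR), 3.76 in Tex (SE 0.48, adjusted p = 8.25e-05) and 3.74 in Teff2 (SE 0.48, adjusted p = 9.94e-05). Scd2 was called in all 15 alternatives tried for each of these comparisons, and with Tn replicate 2 alone the values were 3.45, 3.44 and 3.42.

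Scd1 (chromosome 19, 44394450-44407709), the neighbouring desaturase gene, was not called and varied most among replicates. It had 1.19, 59.7 and 79.7 CPM in Teff1, 1.15, 180 and 165 CPM in Tex, and 0.306, 168 and 146 CPM in Teff2. In Tn it had 75.4, 5.92 and 142 CPM. Replicate 1 of the activated states rested on 25, 21 and 6 counts, where replicates 2 and 3 had 1257 to 3330. Replicate 1 was thus 58.6-fold lower in Teff1, 149-fold lower in Tex and 512-fold lower in Teff2 than the mean of replicates 2 and 3, while Tn replicate 1 was close to the mean of its partners. In the same libraries Scd2 was 1.91-, 3.00- and 2.23-fold lower, and Teff2 replicate 1 held 10286 counts of Scd2 beside its 6 of Scd1. The sources used here do not give the counting settings, so how reads that fit both genes were counted is not known.

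No comparison of Scd1 with Tn was called, and the standard errors were too large to show that its level did not change. The log2 fold change was -0.67 in Teff1, 0.63 in Tex and 0.49 in Teff2, with standard errors of 1.70, 1.69 and 1.69 (adjusted p 0.765, 0.773 and 0.831, edgeR). Among the naive libraries, Scd1 was lowest in Tn replicate 2, the library with the lowest B cell marker sum. The part of B cell RNA in the naive Scd1 level was not tested. Against Tn replicate 2 alone the log2 fold changes of Scd1 were 2.96, 4.27 and 4.13 and were not called either (adjusted p 0.506, 0.355 and 0.384, edgeR). Adipocytes, which are rich in Scd1, left little trace: 6 of their markers summed to at most 2.38 CPM in Tn and 1.57 CPM in the activated libraries, with Adipoq, Cidec and Lep at 0 in Tex.

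**Figure D3:**
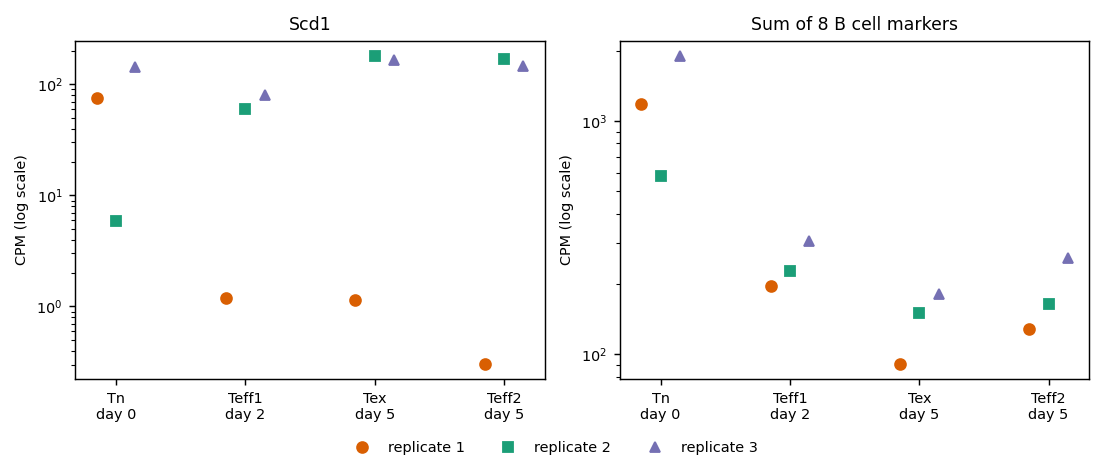
CPM of Scd1 (left) and the summed CPM of 8 B cell markers (right) in every library, by state and replicate, on log axes. In Tn, replicate 2 is lowest in both panels, at 5.92 CPM and 581 CPM, whereas in the activated states Scd1 falls to 0.306 to 1.19 CPM in replicate 1 with marker sums of 91.0 to 196 CPM there.

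The elongases differed from each other. Elovl6 (chromosome 3, 129532386-129638495), which extends palmitate to stearate, had 16.1, 61.2 and 77.6 CPM in Teff1, 11.6, 45.5 and 55.0 CPM in Tex, 11.8, 53.4 and 53.5 CPM in Teff2 and 32.2, 25.4 and 25.3 CPM in Tn. In each activated state, replicates 2 and 3 lay above Tn and replicate 1 below it, 4.31- to 4.52-fold under its partners. With these libraries the log2 fold changes of 0.90, 0.44 and 0.52 were not called (adjusted p 0.276, 0.600 and 0.537, edgeR). Without replicate 1 of the activated states they were 1.40, 0.96 and 1.04 and were called (adjusted p 1.17e-04, 0.00102 and 6.78e-04, edgeR). Elovl5 (chromosome 9, 77917365-77984519), which extends polyunsaturated chains, had 146, 192 and 170 CPM in Teff1, 82.1, 148 and 192 CPM in Tex, 98.9, 151 and 207 CPM in Teff2 and 139, 191 and 152 CPM in Tn. The ranges overlapped throughout, with log2 fold changes of 0.08, -0.19 and -0.08 (adjusted p 0.851, 0.619 and 0.855, edgeR).

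On the side of oxidation, Cpt1a (chromosome 19, 3322326-3385735), the gate for long chains, had 26.1, 63.3 and 50.0 CPM in Teff1, 51.5, 45.4 and 63.6 CPM in Tex, 52.5, 42.3 and 68.4 CPM in Teff2 and 120, 99.9 and 108 CPM in Tn. All 9 activated libraries were below the lowest Tn library. The log2 fold change against Tn was -1.23 in Teff1 (SE 0.29, adjusted p = 0.00417, edgeR), -1.03 in Tex (SE 0.29, adjusted p = 0.00974), and Cpt1a was 2.01-fold lower in Teff2 (SE 0.29 on the log2 scale, adjusted p = 0.0122). The calls ended with Tn replicate 2 as the lone naive library, where the values were -1.12, -0.92 and -0.89 (adjusted p 0.0795, 0.127 and 0.150, edgeR), and that of Teff2 also ended without Teff2 replicate 2 (-0.78, adjusted p = 0.0715).

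Acadm (chromosome 3, 153922353-153944643) changed less. It had 34.9, 35.2 and 36.3 CPM in Teff1, 37.8, 32.8 and 36.7 CPM in Tex, 39.9, 27.7 and 37.6 CPM in Teff2 and 49.7, 62.0 and 58.1 CPM in Tn. The log2 fold change against Tn was -0.67 in Teff1 (SE 0.17, adjusted p = 0.00555, edgeR), -0.66 in Tex (SE 0.17, adjusted p = 0.00541) and -0.69 in Teff2 (SE 0.17, adjusted p = 0.00473). No activated library reached the lowest naive one, and the calls held in all 15 alternatives. Replicate 1 was not low for this gene: it stood at 0.12 and 0.29 on the log2 scale above its partners in Tex and Teff2, and at -0.04 in Teff1.

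Hadha (chromosome 5, 30119423-30154980) went the other way from Cpt1a and Acadm at day 2. It had 157, 162 and 181 CPM in Teff1, 121, 153 and 149 CPM in Tex, 124, 144 and 158 CPM in Teff2 and 118, 137 and 122 CPM in Tn. Teff1 libraries were all above Tn, by 0.41 on the log2 scale (SE 0.15, adjusted p = 0.0380, edgeR), and at day 5 the ranges overlapped, at 0.17 in Tex and 0.18 in Teff2 (adjusted p 0.368 and 0.345, edgeR). The Teff1 call ended under upper-quartile scaling (0.27), without Teff1 replicate 2 or 3, and without any single Tn replicate (adjusted p 0.0517 to 0.117, edgeR). It also ended with Tn replicate 2 as the lone naive library (0.27, adjusted p = 0.445, edgeR). Without replicate 1 of the activated states the day 5 value in Tex was 0.36 and was called (adjusted p = 0.0486, edgeR).

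Replicate 1 of the activated states was thus low for most of the synthesis genes, to differing degrees. Relative to the mean of replicates 2 and 3 on the log2 scale, it stood at -5.87, -7.22 and -9.00 for Scd1 in Teff1, Tex and Teff2, and at -2.11, -2.12 and -2.18 for Elovl6. Scd2 stood at -0.93, -1.58 and -1.16, and Acly at -1.13, -0.82 and -0.91. Acaca stood at -1.34, -0.48 and -0.71, and Elovl5 at -0.31, -1.05 and -0.86. Fasn was low in Teff1 replicate 1 (-1.41) and less so in Tex and Teff2 (-0.21 and -0.42), and Cpt1a in Teff1 replicate 1 only (-1.12, with -0.08 in both others). Acadm and Hadha ranged from -0.32 to 0.29. The Tn library of the same number stood at 0.02 for Scd1 and 0.35 for Elovl6. Fads2, a desaturase of polyunsaturated chains, had the same pattern, with 0.285, 47.0 and 69.2 CPM in Teff1, 0.989, 89.2 and 73.4 CPM in Tex and 0.459, 91.1 and 65.1 CPM in Teff2, against 0.398, 0.136 and 0.537 CPM in Tn. Insig1, which holds SREBP proteins in the endoplasmic reticulum and is a known target of them, had 20.9, 26.5 and 25.5 CPM in replicate 1 of Teff1, Tex and Teff2 and 114 to 175 CPM in replicates 2 and 3.

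**Figure D4:**
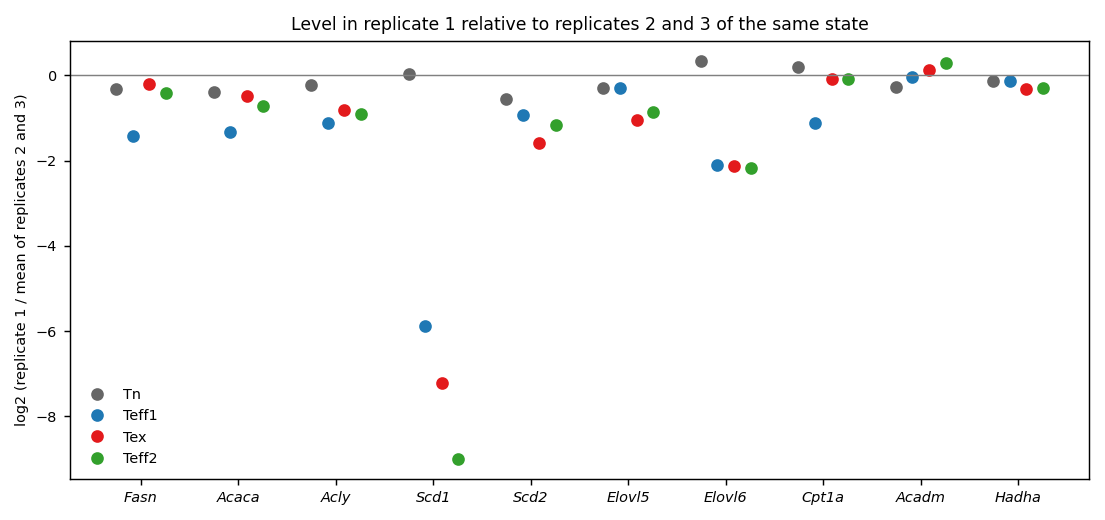
Log2 ratio of replicate 1 to the mean of replicates 2 and 3 of the same state, for each member (points, 1 per state; horizontal line, equal levels). In Teff1, Tex and Teff2 the points fall to between -5.87 and -9.00 for Scd1 and near -2 for Elovl6, while the Tn points stay within 0.6 of 0 and those of Hadha lie close to 0 in all states.

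Teff2 against Teff1 asks what changed between day 2 and day 5 in cells with the same surface stain. No member did by the test: 0 of 10 were called, 0 had an unadjusted p under 0.05 in edgeR, and DESeq2 called 0, beside 0.67% of all genes called in edgeR (0.558% higher, 0.112% lower). The largest difference with a small error was that of Hadha, -0.23 on the log2 scale (SE 0.15, adjusted p = 0.610, edgeR), with 124, 144 and 158 CPM in Teff2 and 157, 162 and 181 CPM in Teff1, where the ranges overlap at their edges. Scd1 differed by 1.16 with an SE of 1.71, and the other 8 by -0.38 to 0.23.

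Tex against Teff2 compares day 5 cells with and without TIM-3. The member levels were close: the log2 differences ran from -0.12 for Elovl5 to 0.14 for Scd1, 0 of 10 were called, 0 had an unadjusted p under 0.05 in edgeR, and DESeq2 called 0, beside 0.00698% of all genes called in edgeR. Libraries of equal number in these 2 states varied together, so a fit within the 3 pairs was also made. It called 1.69% of 13096 genes and again no member (adjusted p 0.400 to 0.992, edgeR). Within pairs, standard errors shrank to 0.08 to 0.14, and Fasn stood at 0.00 (SE 0.09), Scd2 at -0.05 (SE 0.10) and Cpt1a at -0.02 (SE 0.08). Elovl5 was lower in Tex in 3 of 3 pairs, by 0.14 (SE 0.08), and Scd1 higher in Tex in 3 of 3 pairs, by 0.20 (SE 0.14), neither called (adjusted p 0.400 and 0.505, edgeR).

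The rest of the pathway was read from 10 lists of 112 further genes, of which 111 were in the matrix and 100 were tested. In Teff1 against Tn, 28 were higher and 24 lower, in Tex 35 and 18, and in Teff2 32 and 20, which is 52%, 53% and 52% of those tested and near the background of all genes. The counts of genes called higher and lower differed between the lists, a difference that was not tested. Each list is described by its counts, some also by their median, with no test of the list. In mitochondrial fatty acid synthesis, 3 of 6 tested genes (Cbr4, Lias and Mecr) were higher and 0 lower in each state. The median log2 fold changes of this list were 0.93, 0.73 and 0.61. Of all genes, 24.5%, 27.3% and 25.6% were called higher. With Tn replicate 2 as the lone naive library, the Teff1 calls of Cbr4 and Lias ended. The Tex and Teff2 calls of Lias and Mecr ended in that fit too.

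**Figure D5:**
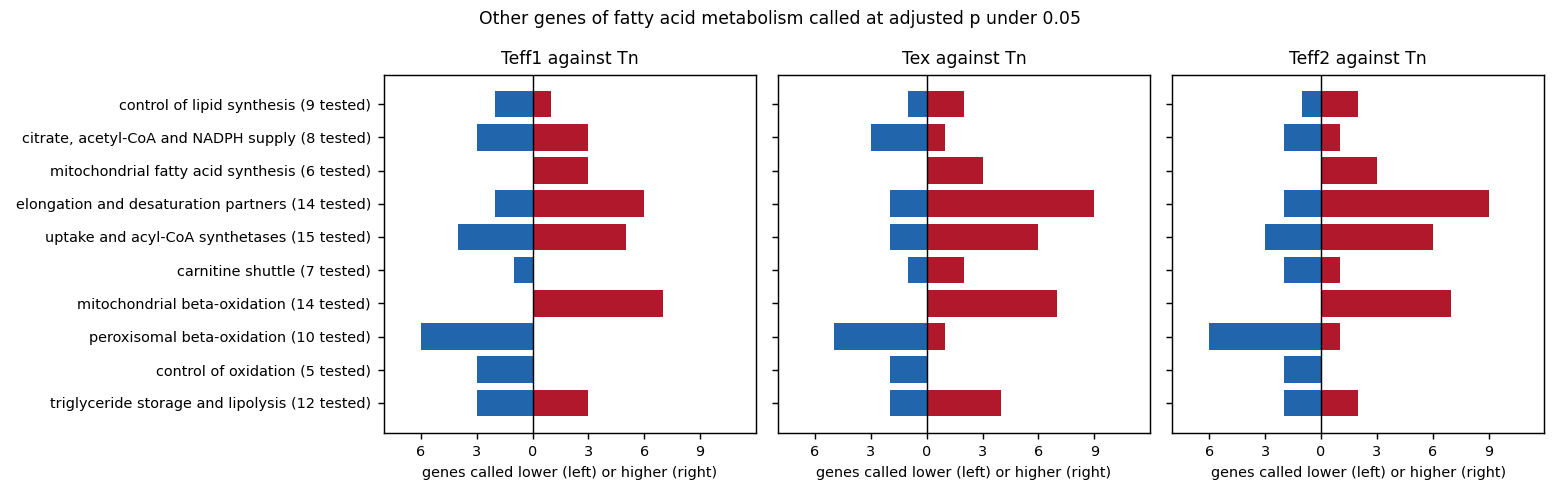
Number of genes called higher (right, red) or lower (left, blue) at adjusted p under 0.05 in each of 10 lists of other fatty acid genes, in Teff1, Tex and Teff2 against Tn, with the number tested beside each list. Mitochondrial beta-oxidation has 7 genes to the right and 0 to the left in each panel, and peroxisomal beta-oxidation 5 or 6 to the left and 0 or 1 to the right.

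Among partners of elongation and desaturation, more genes were called higher than lower. Of 14 tested, 6 were higher and 2 lower in Teff1, 9 and 2 in Tex and 9 and 2 in Teff2, with median log2 fold changes of 0.84, 1.18 and 1.06 against Tn. Fads1, the delta-5 desaturase, had 43.3, 80.0 and 60.4 CPM in Teff1, 18.0, 64.3 and 62.7 CPM in Tex and 18.6, 66.8 and 59.9 CPM in Teff2, against 13.5, 18.2 and 14.9 CPM in Tn. It was 1.98 higher in Teff1 on the log2 scale (SE 0.51, adjusted p = 0.00747, edgeR). Its calls ended in all 3 states with Tn replicate 2 as the lone naive library (adjusted p 0.170 to 0.250, edgeR), and the day 5 calls also without Tn replicate 1 or 3 or without replicate 2 or 3 of their own state. Fads2 was called in all 3 states through replicates 2 and 3, with replicate 1 at the naive level, and each of these calls ended when any single Tn library was left out and with Tn replicate 2 as the lone naive library (adjusted p 0.189 to 0.226, edgeR). Ptpla (now Hacd1), a dehydratase of the elongation cycle, averaged 5.03 CPM in Tex and 0.490 CPM in Tn (3.36, SE 0.53, adjusted p = 3.18e-04, edgeR). Elovl7, an elongase, was lower, with means of 2.80 CPM in Teff1, 2.53 CPM in Tex and 2.58 CPM in Teff2 against 10.1 CPM in Tn, calls that ended in every state without Tn replicate 2 or 3 and with Tn replicate 2 as the lone naive library (adjusted p 0.0902 to 0.123, edgeR). With Tn replicate 2 as the lone naive library the counts of higher genes fell to 1, 3 and 1.

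The supply and control of synthesis did not move as 1 block. Slc25a1, the mitochondrial citrate carrier that feeds Acly, rose in Teff1 to a mean of 46.1 CPM, against 18.1 CPM in Tn (1.34, SE 0.47, adjusted p = 0.0318, edgeR), although Teff1 replicate 1 had 15.8 CPM, and 7 of 15 alternatives ended the call, any single Tn library left out and Tn replicate 2 alone (adjusted p = 0.248, edgeR) among them. The acetate-activating synthetases fell. Acss2, the cytosolic form, had 11.0, 16.2 and 13.4 CPM in Teff1, 5.66, 14.0 and 14.2 CPM in Tex and 6.89, 11.9 and 14.1 CPM in Teff2, against 46.5, 53.7 and 53.3 CPM in Tn. Acss1, the mitochondrial form, averaged 18.4 CPM in Teff1, 15.4 CPM in Tex and 16.0 CPM in Teff2, against 120 CPM in Tn. Of the 8 genes of citrate, acetyl-CoA and NADPH supply that were tested, 3 were higher and 3 lower in Teff1, 1 and 3 in Tex and 1 and 2 in Teff2.

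Of 9 tested genes that control lipid synthesis, 1 was higher and 2 lower in Teff1, 2 and 1 in Tex and 2 and 1 in Teff2. Among these regulators, none of the SREBP genes was called. Srebf1, whose protein drives the synthesis genes, had 129, 294 and 238 CPM in Teff1, 151, 250 and 148 CPM in Tex, 160, 236 and 132 CPM in Teff2 and 130, 158 and 155 CPM in Tn (log2 fold changes 0.58, 0.31 and 0.25, adjusted p 0.144, 0.425 and 0.525, edgeR). Srebf2, which drives sterol synthesis, averaged 447 CPM in Teff1, 486 CPM in Tex and 451 CPM in Teff2, against 273 CPM in Tn (adjusted p 0.135, 0.0814 and 0.131, edgeR). Scap, their escort, stood at 0.07, -0.08 and -0.16, and Insig1 at 1.43, 1.25 and 1.31 (adjusted p 0.150, 0.198 and 0.189, edgeR). Without replicate 1 of the activated states, Srebf2 and Insig1 were called higher in all 3 states and Srebf1 in Teff1. Mid1ip1, a protein known to aid acetyl-CoA carboxylase, was higher, with means of 35.9 CPM in Teff1, 39.7 CPM in Tex and 33.7 CPM in Teff2 against 8.84 CPM in Tn (log2 fold changes 2.02, 2.16 and 1.93). Nr1h3, the liver X receptor alpha, was lower, at means of 1.05 CPM in Teff1, 0.886 CPM in Tex and 0.895 CPM in Teff2, against 16.0, 5.24 and 3.66 CPM in Tn replicates 1, 2 and 3, and its Teff1 call ended without Tn replicate 1. With Tn replicate 2 as the lone naive library its calls ended in all 3 states, at -2.32, -2.58 and -2.54 (adjusted p 0.123, 0.0816 and 0.0940, edgeR). Macrophages, which express Nr1h3, had a marker sum (10 genes, all with counts) of 323, 96.2 and 169 CPM in those Tn libraries and 4.33 to 11.6 CPM in the activated ones, and their part in this result was not tested.

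Mitochondrial beta-oxidation as a list went against Cpt1a and Acadm. Of 14 tested genes 7 were higher and 0 lower in each activated state, with median log2 fold changes of 0.43 in Teff1, 0.54 in Tex and 0.54 in Teff2. Acadl, the long-chain acyl-CoA dehydrogenase, had 66.8, 107 and 112 CPM in Teff1, 87.4, 143 and 188 CPM in Tex and 83.1, 147 and 190 CPM in Teff2, against 39.5, 40.0 and 48.9 CPM in Tn. Its log2 fold change was 1.15, 1.71 and 1.71 (adjusted p 0.0129, 0.00132 and 0.00151, edgeR). Etfb, a subunit of the flavoprotein that takes electrons from the dehydrogenases, averaged 77.5 CPM in Teff1, 97.6 CPM in Tex and 84.8 CPM in Teff2, against 32.8 CPM in Tn (1.24, 1.57 and 1.37). Decr1, needed for unsaturated chains, averaged 19.3 CPM in Teff1, 27.1 CPM in Tex and 28.7 CPM in Teff2, against 10.5 CPM in Tn. The Teff1 calls of Acadl and Decr1 ended with Tn replicate 2 as the lone naive library, at 1.23 and 0.83 (adjusted p 0.132 and 0.179, edgeR). The upper-quartile scaling, which lowered the median of all genes by 0.11 to 0.14 in these comparisons, left 5, 6 and 5 higher. With Tn replicate 2 as the lone naive library 1, 3 and 3 were higher, and without replicate 1 of the activated states 7, 10 and 10 were.

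The carnitine shuttle gave few calls: of 7 tested, 0 were higher and 1 lower in Teff1, 2 and 1 in Tex and 1 and 2 in Teff2. Mlycd, which breaks down malonyl-CoA, averaged 15.2 CPM in Teff1 and 14.2 CPM in Teff2, against 24.5 CPM in Tn (-0.68 and -0.79, adjusted p 0.0329 and 0.0174, edgeR), calls that 7 and 4 of 15 alternatives ended, Tn replicate 2 alone among them (adjusted p 0.216 and 0.152, edgeR). Slc25a20, the carnitine-acylcarnitine carrier, was higher in Tex, at 38.7 CPM against 28.0 CPM in Tn (0.47, SE 0.17, adjusted p = 0.0313, edgeR), a call that 7 of 15 alternatives ended, Tn replicate 2 alone among them (adjusted p = 0.376, edgeR).

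In peroxisomal beta-oxidation, which shortens very long chains, more genes were called lower than higher. Of 10 tested genes, 6 were lower and 0 higher in Teff1, 5 and 1 in Tex and 6 and 1 in Teff2, with median log2 fold changes of -0.89, -0.77 and -0.68. Scp2, the thiolase and sterol carrier, had 52.4, 54.7 and 65.1 CPM in Teff1, 57.3, 65.9 and 73.4 CPM in Tex and 60.8, 58.2 and 67.8 CPM in Teff2, against 128, 148 and 144 CPM in Tn. Acaa1a, another thiolase, averaged 47.1 CPM in Teff1, 60.6 CPM in Tex and 61.1 CPM in Teff2, against 105 CPM in Tn. Abcd3, a peroxisomal transporter for branched chains, was the exception, with 81.4, 133 and 123 CPM in Tex and 36.4, 115 and 106 CPM in Teff2 against 29.1, 29.8 and 24.5 CPM in Tn (2.02 and 1.62, adjusted p 7.47e-04 and 0.00300, edgeR). With Tn replicate 2 as the lone naive library 3, 4 and 3 were lower, and the Teff2 call of Abcd3 ended (1.51, adjusted p = 0.0939, edgeR).

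Of 9 control genes of oxidation, 5 were tested, of which 3 were lower and 0 higher in Teff1, 2 and 0 in Tex and 2 and 0 in Teff2. Ppargc1b and Prkaa1 were called in all 3 states, and Pparg was the third in Teff1. Ppargc1b, a co-activator of mitochondrial genes, averaged 11.5 CPM in Teff1, 5.31 CPM in Tex and 6.58 CPM in Teff2, against 23.2 CPM in Tn (-1.01, -2.13 and -1.82). Prkaa1, the catalytic alpha-1 subunit of AMPK, averaged 47.7 CPM in Teff1, 41.1 CPM in Tex and 42.4 CPM in Teff2, against 69.2 CPM in Tn (-0.54, -0.75 and -0.71). The Teff1 calls of both ended with Tn replicate 2 as the lone naive library (adjusted p 0.0739 and 0.0535, edgeR), and that of Prkaa1 also without Teff1 replicate 2. Ppargc1a had 3, 0 and 1 counts in all in Teff1, Tex and Teff2 and 24 in Tn, and Ppara had 3, 0 and 1 in those states and 4 in Tn, so neither could be tested.

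Uptake and storage genes changed in both directions. Of 15 tested genes of uptake and acyl-CoA synthetases, 5 were higher and 4 lower in Teff1, 6 and 2 in Tex and 6 and 3 in Teff2. Of 12 tested genes of triglyceride storage and lipolysis, 3 were higher and 3 lower in Teff1, 4 and 2 in Tex and 2 and 2 in Teff2. Fabp5, a fatty acid carrier of the cytosol, had 23.6, 77.1 and 155 CPM in Teff1, 65.6, 154 and 111 CPM in Tex and 44.6, 140 and 118 CPM in Teff2, against 12.3, 4.02 and 4.68 CPM in Tn (3.61, 3.98 and 3.85, adjusted p 0.00152, 7.74e-04 and 0.00107, edgeR). Acsl4, which activates polyunsaturated fatty acids, averaged 206 CPM in Teff1, 246 CPM in Tex and 247 CPM in Teff2, against 55.4 CPM in Tn (1.90, 2.15 and 2.16). Plin2, the coat protein of lipid droplets, averaged 20.4 CPM in Teff1, 54.7 CPM in Tex and 52.3 CPM in Teff2, against 8.75 CPM in Tn, and its Teff1 call ended with Tn replicate 2 as the lone naive library (adjusted p = 0.103, edgeR). Dgat2, which makes triglyceride, had 15.8, 21.1 and 12.6 CPM in Teff1, 5.60, 5.89 and 3.49 CPM in Tex and 4.39, 6.00 and 2.58 CPM in Teff2, against 1.79, 0.817 and 0.645 CPM in Tn. Lipa, the lysosomal acid lipase, was lower, with means of 29.3 CPM in Teff1, 30.6 CPM in Tex and 33.4 CPM in Teff2 against 75.7 CPM in Tn (-1.37, -1.31 and -1.18).

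Of the 100 other pathway genes, 0 were called in Teff2 against Teff1 by edgeR, beside 0.67% of all genes. An unadjusted p under 0.05 was found for 12, and the share of all genes at that threshold was not counted. DESeq2 called 2 of the 100, Dgat2 (lower in Teff2) and Plin2 (higher in Teff2), beside 497 of all genes. Their adjusted p in edgeR was 0.0620 and 0.0726. Of 14 alternatives, DESeq2 included, 4 called Dgat2 and 2 called Plin2. In Tex against Teff2, edgeR called 0 of the 100 and 1 had an unadjusted p under 0.05: Cd36, a scavenger receptor that takes up fatty acids and oxidised lipid, which DESeq2 also called (adjusted p = 0.0314). Cd36 had 5.16, 2.75 and 9.42 CPM in Tex, against 0.459, 0.968 and 0.914 CPM in Teff2, with no overlap. Its adjusted p was 1 in the fit of all 12 libraries. Within the 3 pairs Cd36 was higher in Tex in 3 of 3 by 2.83 on the log2 scale (SE 0.37, adjusted p = 0.0105, edgeR). Cd36 was the only 1 of 93 pathway genes called there (1.08%), beside 1.69% of all genes in that fit. Only 2 of 14 alternatives called Cd36, DESeq2 and the fit within pairs, and over all 14 its adjusted p ran from 0.0105 to 1. Macrophages also express Cd36, and their markers summed to 7.47 to 9.73 CPM in Tex and 7.42 to 11.6 CPM in Teff2. Cd68 made up nearly all of these sums, at 7.31 to 9.52 CPM in Tex and 7.29 to 11.3 CPM in Teff2, and the part of macrophages was not tested. In Tn, Cd36 had 7.95, 2.72 and 6.83 CPM, lowest in the library with the lowest marker sums of B cells and macrophages, and the part of those cells was not tested.

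To place each member, the genes with the most alike profile over the 12 libraries were taken by the root mean square difference of centred log2(CPM + 0.5), among 9365 tested genes with a mean of at least 5 CPM. The nearest to Fasn were Mybbp1a (0.17), a protein of the nucleolus, and Cad (0.18), the first enzyme of pyrimidine synthesis, where Cad had 200, 417 and 509 CPM in Teff1 and 119, 171 and 135 CPM in Tn. The nearest to Elovl6 was Nsdhl (0.29), an enzyme of cholesterol synthesis, and Dhcr7 (0.36), another, came after Sh2d1a (0.35). Nsdhl had 9.09, 34.9 and 43.5 CPM in Teff1, 9.23, 37.9 and 38.1 CPM in Tex and 10.1, 39.0 and 39.9 CPM in Teff2, against 14.5, 13.0 and 13.4 CPM in Tn, low in the same libraries as Elovl6. For Scd2 they were Mnd1 (0.30), Tmem97 (0.30) and Pgk1 (0.31). For Acadm, Add1 (0.10) and for Hadha, Timm21 (0.07) were nearest. No gene was close to Scd1, where the nearest, Isg15, an interferon-induced gene, differed by 1.83, though it too was lowest in replicate 1 of the activated states. Among the members themselves, the closest pairs were Elovl5 and Hadha (0.30), Acly and Hadha (0.33) and Fasn and Acaca (0.37). The measure is not scaled to a gene's own spread, so genes that vary little come out close whatever their profile. The standard deviation over the 12 libraries was 0.20 for Hadha, 0.40 for Elovl5 and 0.46 for Acly. It was 0.75 for Fasn, 0.90 for Acaca and 3.03 for Scd1. These are descriptions over libraries that share states and depth.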

How the data were processed

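The authors deposited raw counts, whole numbers per gene for 34573 gene symbols and 12 RNA-seq libraries, made per the submitters' processing notes with tools that include HISAT2 and HTSeq on mm10, with no settings given. A second deposited matrix holds log2 values normalized by the authors for 21574 genes, from -1.99 to 17.7, whose transformation is not stated; it served as an alternative only. Per the labels' protocols, RNA was extracted with the Monarch kit and libraries were made with the NEBNext Ultra RNA kit, which does not mark strand, so overlapping and antisense genes cannot be told apart.

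The counts went into edgeR 4.0.16 (R 4.3.3), tested by its quasi-likelihood method (TMM factors, edgeR's filter by expression, 14332 genes kept, group means over all 12 libraries, Benjamini-Hochberg adjustment over all genes tested). A gene was called at adjusted p under 0.05, and SE is the log2 fold change divided by the square root of F. Alternatives were DESeq2 1.42.0, other scaling factors, no filter, fits on the 2 groups compared with and without a replicate block, limma 3.58.1 on the log2 values, and left-out libraries. The scripts were tested on simulated data. No 2 of the 66 pairs of libraries were identical.

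Across genes, deviations from the group mean correlated at 0.752 to 0.851 between Tex and Teff2 libraries of equal number and at most 0.119 otherwise, so those were read as 3 pairs, a reading that rests on the data and not on the labels.

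The members, the 10 pathway lists, the marker lists and the tests were chosen with earlier results of these data known. All members were named. Of each list, up to 3 called genes with the largest change and a mean of at least 5 CPM in the higher group were taken per comparison, and Srebf1, Srebf2, Scap, Insig1, Ppargc1a and Ppara always, of which the text gives a selection; genes named for Teff2 against Teff1 and Tex against Teff2 were chosen after their values were seen. Hacd1 to Hacd4 and Adgre1 were read under older names, and Hsd17b8 was not found. Coordinates and promoter windows come from RefSeq on GRCm38.p6. Levels are not compared between genes, since no transcript lengths were used.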

Additional observations from a re-analysis of the deposited data

How the results depend on the processing

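Scd2 and Acadm were called against Tn in each activated state under all 15 alternatives, and no called value of a member changed sign. With Tn replicate 2 as the lone naive library, assumed to vary like the other groups, 1 member was called higher and 1 lower in each of the 3 comparisons with Tn, and 3015 (Teff1), 3944 (Tex) and 3334 (Teff2) genes in all, from main counts of 7012, 7584 and 7010; fewer samples entered this fit. Without replicate 1 of Teff1, Tex and Teff2, 6 members were higher in Tex and 5 in Teff2 against Tn, since Acly and Elovl6 were then called in both and Hadha in Tex, and 0 genes were called in Tex against Teff2. Replicate 1 was the lowest library of each activated state for Acly, Elovl6 and Hadha. All genes called against Tn then numbered 8326 in Teff1, 9057 in Tex and 8492 in Teff2. Leaving out 1 library at a time gave 2 to 4 members higher in Teff1 against Tn and 1 to 2 lower in Teff2 against Tn (1 without Teff2 replicate 2). It gave 23 to 106 genes called in Teff2 against Teff1 (25 without Teff2 replicate 3, 41, 26 and 23 without Teff1 replicates 1, 2 and 3) and 0 to 1 in Tex against Teff2, where 1 gene was called without Tex replicate 2 and 0 without any other single library. Of 96 genes called in Teff2 against Teff1, DESeq2 gave 497, a fit on these groups alone 39 and a replicate block 277. For the 1 gene called in Tex against Teff2, DESeq2 gave 5, upper-quartile factors 0, a fit on these groups alone 0 and the replicate block on the pairs 221; the causes were not tested. The block changed no call of a member. Against Tn, libraries of equal number correlated weakly, at 0.005 to 0.136 (Teff1), 0.028 to 0.136 (Tex) and 0.005 to 0.080 (Teff2), and were not read as pairs. Teff2 and Teff1 were not read as pairs either, with equal numbers at 0.029 to 0.507 and unequal ones up to 0.505. Their replicates 1 did vary together, at 0.507. Replicate 1 of either state stood at -0.566 to -0.112 with replicates 2 and 3 of the other. Replicate 1 levels of Scd1 rest on 6 to 25 counts, which limits their precision.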
